A study of Homo sapiens with 12 samples.

Results

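The genes described here encode 39 lysosomal proteins: cathepsins and other proteases, glycosidases, sulfatases, enzymes and carriers of lipids, and membrane proteins of the organelle. They were chosen by name, with cathepsin S (CTSS) left out and with earlier results of these data known. All 39 were found among the 19293 genes of the count table. Of these, 38 had enough counts for testing, among 12160 genes tested. RNA was sequenced from HT1080, an established human fibrosarcoma line, so each result is from a single cell line. There were 12 libraries, 3 in each of 4 groups: cells given IFNγ at 10 ng/ml and 20 Gy of radiation (the combination), cells given 20 Gy alone (irradiated), cells given IFNγ alone, and untreated cells. Every group was collected at 24 h, and IFNγ is a cytokine that T cells and NK cells release. The design lets the effect of radiation on lysosomal transcripts be measured with and without IFNγ, and that of IFNγ with and without radiation.

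Lysosomes are acidic organelles in which proteins, glycans, glycosaminoglycans and lipids are broken down. Most soluble hydrolases are made in the endoplasmic reticulum, tagged with mannose 6-phosphate in the Golgi and carried by receptors to the organelle, while a proton pump, the V-ATPase, keeps its lumen acid. The transcription factors TFEB, TFE3, MITF and TFEC (the MiT family) can raise many lysosomal genes together through an E-box motif near the gene start, named CLEAR. In fibroblast-like cells lysosomes also digest collagen and other matrix taken up from outside.

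Library totals ran from 9675126 to 11010656 counts, and the tested genes had a median of 320 counts per library. The mesenchymal markers of a fibrosarcoma were present, led by VIM, FN1 and SPARC, although THY1 had 0 to 2 counts and S100A4 had 7 to 21. Among epithelial markers KRT8 and KRT18 were detected, whereas EPCAM, CDH1 and KRT19 had 0 to 2 counts in each library. One library stood apart: irradiated replicate 2 had 59 counts of the IFNγ-induced gene GBP5, against 10 and 3 in the other irradiated libraries, 23 of the leukocyte gene PTPRC against 2 and 1, and 14 of LYZ against 4 and 4. Counts and calls that rest on irradiated cells were therefore also computed without it. Whether the 3 libraries of a group came from separate cultures is not labelled. The p-values therefore reflect library-to-library spread, part or all of which may be technical. Levels are counts per 1000000 of the TMM-scaled library (CPM). Log2 fold changes are given with their standard error (SE). Calls are those of edgeR's quasi-likelihood test, Benjamini-Hochberg adjusted over every tested gene, with 0.05 as the limit.

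Promoter sequence was at hand for 28 of the 39 genes. The window holds 250 bases before to 50 bases after the start in RefSeq's GRCh38.p14 annotation, and both strands were searched. The E-box CACGTG lay in 8 of the 28 windows (28.6%), those of CTSA, CTSD, CTSF, GAA, NEU1, LAMP1, CD63 and CLN3, and in 8.34% of the 22198 protein-coding promoters searched. Its longer form TCACGTGA, which contains the E-box, lay in 4 (14.3%), against 1.27% of all. The full CLEAR palindrome, which is TCACGTGA with a G before it and a C after it, lay in GAA alone (3.57%), against 0.496% of all. The motif of STAT dimers, TTCNNNGAA (GAS), lay in 2 windows, FUCA1 and ARSB (7.14%), against 6.79% of all. The core of the interferon-stimulated response element, searched as a pair of GAAA runs with any 2 bases between them, lay in 0 of the 28, against 3.17% of all. A match describes these letters in this window and is not a measured binding site. Each lysosomal gene was searched in 1 window, whereas a gene with more than 1 listed promoter would count more than once among the 22198.

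For 5 genes named in the results below, the 250 bases before the start are shown so that windows with and without the motif can be set side by side. Any link between the motif and the response to treatment was not tested. The 5 windows were picked by hand and hold the E-box more often than the 28 searched. Each is printed 5′ to 3′ on the gene's strand from RefSeq (GRCh38.p14), and capitals mark CACGTG with those flanking bases that extend it to TCACGTGA or to the full palindrome. The GAA window is chr17:80101331-80101580 (plus strand), with the palindrome beginning at -78 and at -33 from the start. The LAMP1 window is chr13:113296989-113297238 (plus strand), where E-boxes begin at -192, -176, -159, -142 and -28, and a further one at -1 runs across the start and past the printed end. The NEU1 window is chr6:31862822-31863071 (minus strand), with 1 E-box at -126. The CTSD window is chr11:1763928-1764177 (minus strand), with 1 at -47. The FUCA1 window is chr1:23868291-23868540 (minus strand) and holds no E-box of these letters.
GAA: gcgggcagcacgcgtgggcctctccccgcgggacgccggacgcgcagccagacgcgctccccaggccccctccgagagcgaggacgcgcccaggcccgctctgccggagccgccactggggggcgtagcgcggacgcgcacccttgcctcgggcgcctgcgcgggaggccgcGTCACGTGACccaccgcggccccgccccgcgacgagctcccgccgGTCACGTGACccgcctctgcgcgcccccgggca
LAMP1: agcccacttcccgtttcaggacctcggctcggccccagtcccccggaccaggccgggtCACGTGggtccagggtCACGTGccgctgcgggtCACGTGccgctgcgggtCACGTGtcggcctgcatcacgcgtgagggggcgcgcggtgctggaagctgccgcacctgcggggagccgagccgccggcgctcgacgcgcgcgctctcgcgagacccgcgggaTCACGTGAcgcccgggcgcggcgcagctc
NEU1: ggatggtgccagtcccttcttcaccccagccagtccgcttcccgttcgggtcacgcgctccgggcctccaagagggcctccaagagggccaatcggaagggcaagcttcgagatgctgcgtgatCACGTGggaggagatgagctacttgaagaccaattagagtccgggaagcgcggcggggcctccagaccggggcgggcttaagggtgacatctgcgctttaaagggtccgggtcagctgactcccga
CTSD: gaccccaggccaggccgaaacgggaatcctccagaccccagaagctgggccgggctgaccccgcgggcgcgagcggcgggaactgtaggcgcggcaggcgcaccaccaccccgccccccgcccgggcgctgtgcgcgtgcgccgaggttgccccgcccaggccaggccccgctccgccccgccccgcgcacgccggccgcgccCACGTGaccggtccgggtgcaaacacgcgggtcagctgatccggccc
FUCA1: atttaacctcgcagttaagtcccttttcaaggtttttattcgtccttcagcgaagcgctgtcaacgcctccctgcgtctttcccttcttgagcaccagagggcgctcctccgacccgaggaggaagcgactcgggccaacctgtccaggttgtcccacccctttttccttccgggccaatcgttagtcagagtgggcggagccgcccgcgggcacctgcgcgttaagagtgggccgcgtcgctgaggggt

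Most of these genes rose modestly in cells given radiation alone. Relative to untreated cells, 33 of the 38 tested genes (86.8%) rose, 1 fell and 4 were not called. Over all 12160 genes tested, 27.9% were called higher and 28.2% lower. The median log2 fold change of the lysosomal genes was 0.41, against 0.006 over all genes tested. Summed over the 39 genes, they held 0.462% ± 0.00207 of counts in irradiated libraries and 0.364% ± 0.00286 in untreated libraries (SD, n = 3 each), with no overlap between the groups. Without irradiated replicate 2 the counts were again 33 and 1 and the median again 0.41. All 38 genes kept their call or lack of one, and log2 values moved by at most 0.12 apart from CTSK (1.52 with it, 1.32 without). By role, the numbers higher and lower were also those given below, and the medians 0.50 for proteases, 0.52 for glycosidases, 0.36 for sulfatases, 0.42 for lipid genes and 0.25 for membrane proteins. These are bulk libraries, so a change in the mix of cells and a change in RNA per cell cannot be told apart. CPM gives each gene's share of the RNA, not its amount per cell.

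**Figure D1:**
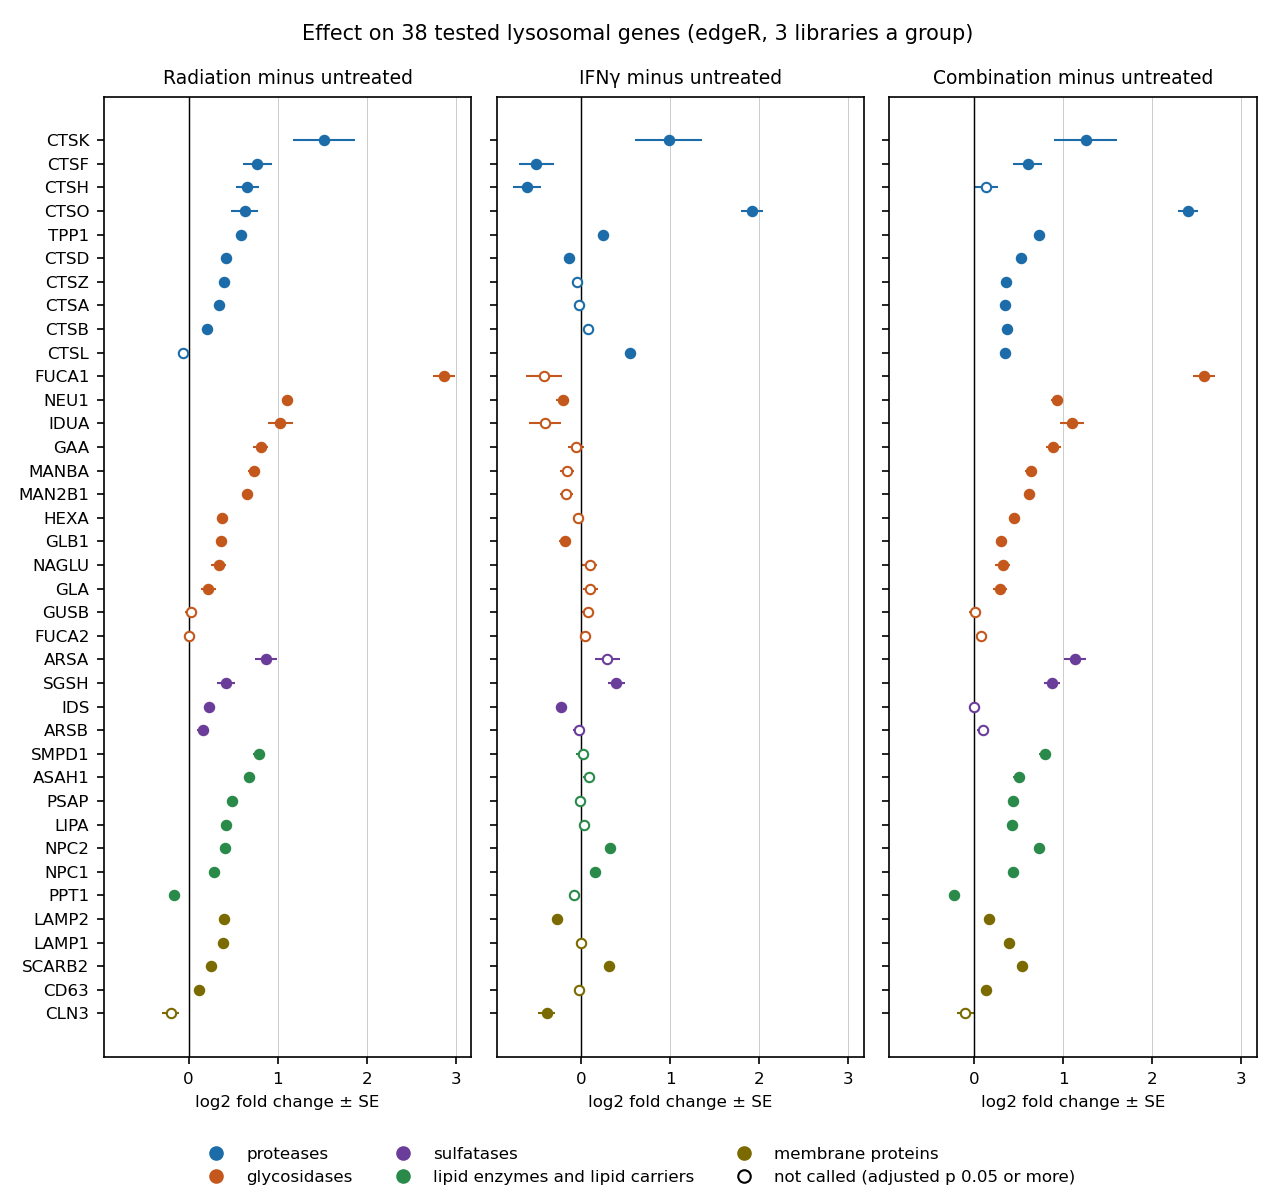
Log2 fold change ± SE (edgeR, 3 libraries a group) of the 38 tested lysosomal genes in irradiated, IFNγ-treated and combination cells, each minus untreated cells. Colours give the role of the protein and open circles mark genes that were not called. In irradiated cells 33 filled points lie right of 0 and 1, PPT1, lies left, while in IFNγ-treated cells 8 lie on each side.

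Glycosidases, which trim sugars from glycoproteins, glycolipids and glycosaminoglycans, included the gene with the largest rise, FUCA1. Of 12 tested, 10 rose (83.3%) and 0 fell in irradiated cells, with a median of 0.52. For proteases the share that rose was 90.0% and the median 0.50. For glycosidases, proteases and sulfatases the count of 0 lower was also 0 at an unadjusted p under 0.05 in edgeR and 0 with DESeq2. FUCA1, the lysosomal fucosidase, had 27.4, 27.5 and 28.6 CPM in irradiated libraries and 4.22, 3.29 and 3.86 CPM in untreated libraries. Every irradiated library was far above every untreated one, and the difference was 7.33-fold (log2 2.87 ± 0.119, edgeR adjusted p = 1.44e-28). FUCA2, the related fucosidase that is largely secreted, averaged 86 ± 3.23 CPM in irradiated cells and 85.6 ± 1.34 CPM in untreated cells (SD, n = 3 each), and its log2 difference of 0.008 ± 0.0487 was not called (edgeR adjusted p = 0.904).

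NEU1, the lysosomal sialidase, had 62.4, 63.6 and 60.4 CPM in irradiated libraries and 29.3, 30.2 and 26.9 CPM in untreated libraries, a 2.15-fold rise (log2 1.11 ± 0.0619, edgeR adjusted p = 1.24e-22). IDUA, the iduronidase of heparan and dermatan sulfate breakdown, had 9.37, 11.5 and 10 CPM in irradiated libraries and 5.63, 4.8 and 4.67 CPM in untreated libraries. Neither gene overlapped between groups, and for IDUA the rise was 2.04-fold (log2 1.03 ± 0.14, edgeR adjusted p = 7.85e-09). IDUA shares 13.3% of its exon bases with SLC26A1 on the opposite strand, and whether the counting used strand is not given in the sources used here. SLC26A1 itself had 16 to 18 counts in irradiated libraries and 9 to 12 in untreated ones.

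GAA, the acid glucosidase that breaks down glycogen, had 35.8, 33.4 and 34.6 CPM in irradiated libraries and 20.4, 19.2 and 19.7 CPM in untreated libraries. MANBA, the beta-mannosidase, had 42.8, 42 and 44.7 CPM in irradiated libraries and 24.9, 27.5 and 25.2 CPM in untreated libraries. MAN2B1, the alpha-mannosidase that acts with it on N-glycans, had 53.1, 51 and 50.2 CPM in irradiated libraries and 35.1, 32.3 and 30 CPM in untreated libraries. None of the 3 overlapped between groups. The log2 rises were 0.81 ± 0.0816 for GAA, 0.74 ± 0.0675 for MANBA and 0.66 ± 0.0626 for MAN2B1, with edgeR adjusted p values of 1.44e-12, 3.75e-14 and 1.42e-13. HEXA (beta-hexosaminidase), GLB1 (beta-galactosidase), NAGLU (a heparan sulfate glucosaminidase) and GLA (alpha-galactosidase) rose by log2 0.37, 0.36, 0.34 and 0.22. The GLA call was lost without untreated replicate 1 (edgeR adjusted p = 0.0697) and without irradiated replicate 1 (edgeR adjusted p = 0.0941). It was also lost with DESeq2 (adjusted p = 0.0747). GUSB, the beta-glucuronidase, was not called (log2 0.031 ± 0.068, edgeR adjusted p = 0.718).

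Proteases rose in 9 of 10 tested genes, and 0 fell, with a median log2 difference of 0.50 between irradiated and untreated cells. TPP1, which removes tripeptides from protein ends, had 133, 126 and 121 CPM in irradiated libraries and 82.1, 85.5 and 84.8 CPM in untreated libraries, a log2 rise of 0.59 ± 0.0464 (edgeR adjusted p = 1.41e-16). CTSF, a cysteine protease, had 7.36, 5.92 and 8.07 CPM in irradiated libraries and 4.78, 4.05 and 3.65 CPM in untreated libraries. CTSH, an aminopeptidase of the same family, had 10.1, 10.2 and 10.3 CPM in irradiated libraries and 6.66, 6.96 and 5.68 CPM in untreated libraries. Groups did not overlap for these 3 genes, and the log2 rises were 0.77 ± 0.162 for CTSF and 0.66 ± 0.128 for CTSH (edgeR adjusted p = 5.21e-05 and 1.38e-05). CTSO, a little-studied cysteine cathepsin, had 7.16, 6.23 and 8.16 CPM in irradiated libraries and 4.41, 5.18 and 4.36 CPM in untreated libraries (log2 0.63 ± 0.154, edgeR adjusted p = 4.53e-04).

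CTSD, the main aspartic protease, had 184, 186 and 186 CPM in irradiated libraries and 142, 138 and 138 CPM in untreated libraries. The rise was log2 0.42 ± 0.0371 without overlap (edgeR adjusted p = 1.51e-14). CTSZ (log2 0.40), CTSA (0.34), which also protects NEU1 and GLB1 in a complex, and CTSB (0.21) rose as well. CTSL, a potent endopeptidase, was the exception, with 121, 140.2 and 136 CPM in irradiated libraries and 135, 145 and 135 CPM in untreated libraries. Its groups overlapped and it was not called (log2 -0.060 ± 0.0478, edgeR adjusted p = 0.291).

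CTSK, the collagen-cleaving cathepsin of osteoclasts, was barely expressed, with 14, 29 and 27 counts in irradiated libraries and 8, 3 and 14 counts in untreated libraries. Its rise of log2 1.52 ± 0.346 was called (edgeR adjusted p = 1.80e-04), but irradiated replicate 1 at 1.41 CPM lay under untreated replicate 3 at 1.42 CPM. The fitted value was 2.14 without untreated replicate 3 and 1.10 without untreated replicate 2. Osteoclast-defining DCSTAMP, OCSTAMP and CALCR had 0 or 1 count in each library, and ACP5, which osteoclasts share with macrophages, had 26 to 37 counts in irradiated and 7 to 11 in untreated libraries. CTSC, a dipeptidyl peptidase, was the gene that could not be tested. It had 1, 0 and 1 counts in combination libraries, 0, 8 and 0 in irradiated libraries, 0, 1 and 1 in IFNγ-treated libraries and 0 in every untreated library, and the 8 were in irradiated replicate 2.

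**Figure D2:**
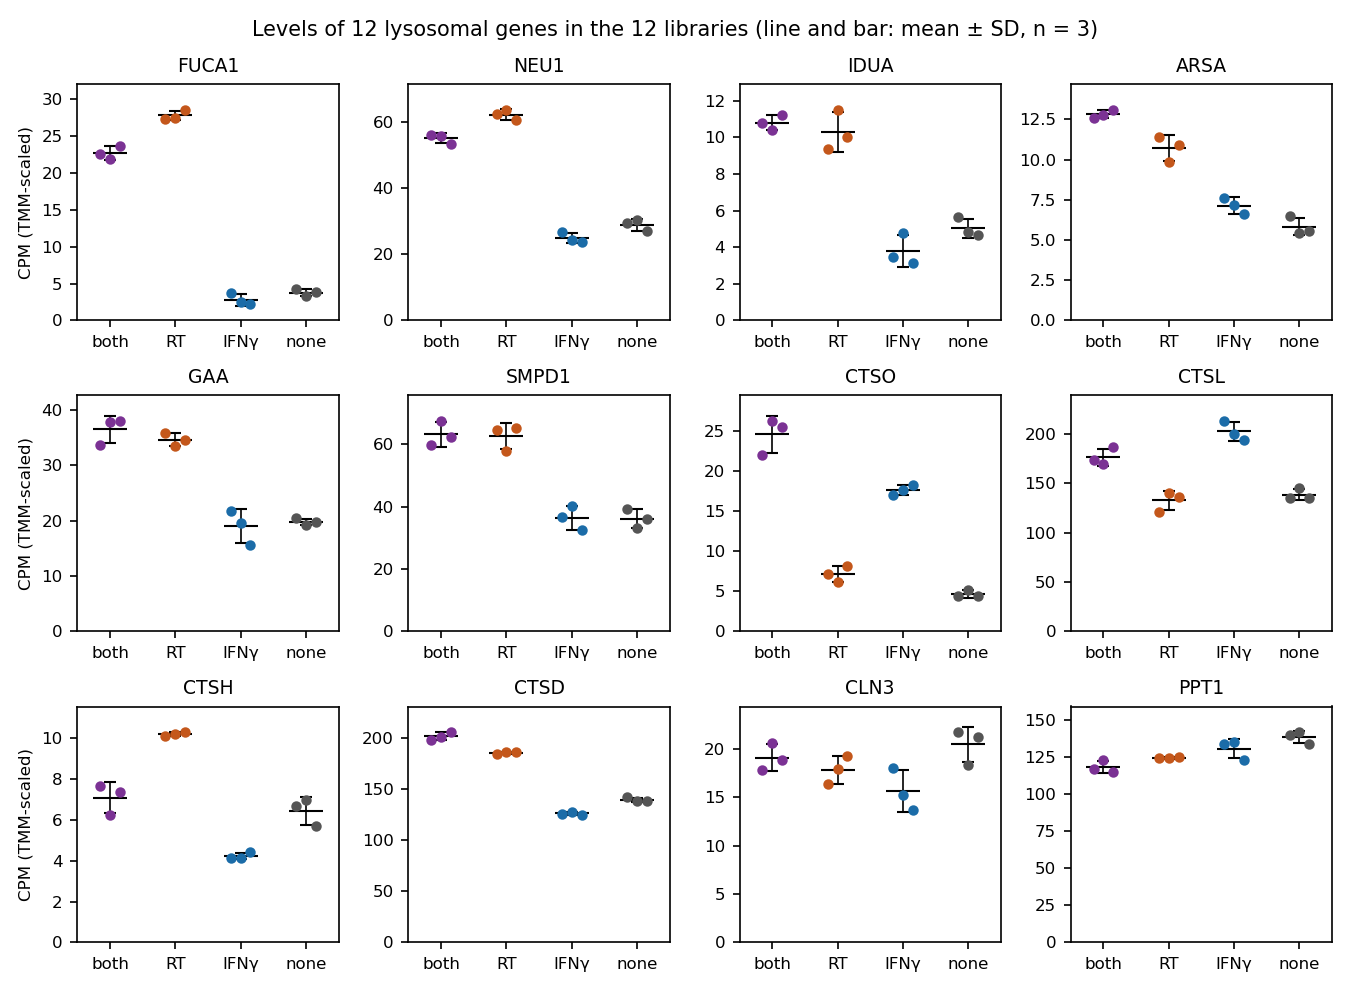
Levels in CPM (TMM-scaled) of 12 lysosomal genes in each library of the combination (both), irradiated (RT), IFNγ-treated and untreated (none) groups; points are libraries, and the line and bar give the mean ± SD of 3. FUCA1 lies at 21.9 to 28.6 CPM in the groups that received radiation and at 2.21 to 4.22 CPM in those that did not. CTSO is highest in the combination and CTSL in IFNγ-treated cells.

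All 4 sulfatases, which remove sulfate from glycosaminoglycans and glycolipids, rose in irradiated cells, with a median of 0.33. ARSA, the sulfatase of the myelin lipid sulfatide, had 11.4, 9.84 and 10.9 CPM in irradiated libraries and 6.47, 5.46 and 5.58 CPM in untreated libraries. That rise of log2 0.87 ± 0.128 was the largest of the 4 (edgeR adjusted p = 4.99e-08). SGSH, which acts on heparan sulfate, had 20, 16.9 and 21.3 CPM in irradiated libraries and 15.5, 13.9 and 14 CPM in untreated libraries (log2 0.42 ± 0.096, edgeR adjusted p = 1.72e-04). IDS, the iduronate sulfatase, rose by log2 0.23 and ARSB, which acts on dermatan sulfate, by 0.16. The ARSB call was lost without untreated replicate 1 or 2 or irradiated replicate 1 or 3 (edgeR adjusted p = 0.0638, 0.0866, 0.165 and 0.0869) at log2 values of 0.13 to 0.16. It was also lost with DESeq2 (adjusted p = 0.0898) and without the count filter (edgeR adjusted p = 0.0593).

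Among lipid enzymes and carriers 6 of 7 rose and 1 fell, with a median of 0.42. SMPD1, the acid sphingomyelinase that makes ceramide, had 64.7, 57.9 and 65.2 CPM in irradiated libraries and 39.3, 33.1 and 36.1 CPM in untreated libraries. ASAH1, the acid ceramidase that breaks ceramide down, had 60.2, 55.6 and 57 CPM in irradiated libraries and 35.6, 34.2 and 38.3 CPM in untreated libraries. Both rose without overlap between groups, by log2 0.79 ± 0.0682 for SMPD1 and 0.68 ± 0.0602 for ASAH1 (edgeR adjusted p = 1.38e-13 and 1.44e-14). PSAP, the precursor of the saposin activators, rose by log2 0.49, and LIPA, the acid lipase of cholesteryl esters, by 0.42. NPC2 and NPC1, the soluble and membrane-bound carriers of the cholesterol exit route, rose by log2 0.41 and 0.29.

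PPT1, which removes palmitate from proteins, was the gene that fell. It had 124, 124 and 125 CPM in irradiated libraries and 139.8, 142 and 134 CPM in untreated libraries, a log2 value of -0.16 ± 0.042 without overlap (edgeR adjusted p = 8.84e-04). Of its exon bases, 23.4% lie opposite CAP1, which had 6670 to 7179 counts in irradiated and 6955 to 7633 in untreated libraries. The part of CAP1 reads in the PPT1 values was not tested.

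Of 5 membrane proteins 4 rose and 0 fell in irradiated cells, with a median of 0.25, the lowest of the 5 roles. At an unadjusted p under 0.05 in edgeR 1 of them was lower, and with DESeq2 0. LAMP1 and LAMP2, the abundant glycoproteins that line the membrane, rose by log2 0.39 ± 0.0342 and 0.40 ± 0.0381. SCARB2, the carrier of glucocerebrosidase, had 288, 289 and 295 CPM in irradiated libraries and 235, 252 and 247 CPM in untreated libraries, a log2 rise of 0.25. CD63, a tetraspanin also found on exosomes, rose by 0.12. CLN3, the protein lost in juvenile Batten disease, had 16.4, 17.9 and 19.3 CPM in irradiated libraries and 21.8, 18.4 and 21.3 CPM in untreated libraries. These groups overlapped and its log2 value of -0.20 ± 0.0937 was not called (edgeR adjusted p = 0.0709), although it was called lower without untreated replicate 2 (edgeR adjusted p = 0.0234) or irradiated replicate 3 (edgeR adjusted p = 0.0393).

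With IFNγ alone, single genes moved in both directions. Relative to untreated cells 8 of 38 rose, 8 fell and 22 were not called, with a median log2 fold change of -0.021 against -0.005 over all genes tested. Over all genes tested, 15.0% were called higher and 14.1% lower. Scaling by library totals in place of TMM gave 7 higher and 13 lower. Over all genes tested, that scaling put 31.1% of the calls on the higher side, against 51.6% with TMM. The 39 genes held 0.362% ± 0.00825 of counts in IFNγ-treated libraries and 0.364% ± 0.00286 in untreated libraries (SD, n = 3 each).

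Proteases held 7 of the 16 calls: 4 of 10 rose and 3 fell. CTSO had 17, 17.6 and 18.3 CPM in IFNγ-treated libraries and 4.41, 5.18 and 4.36 CPM in untreated libraries. Every IFNγ-treated library was over every untreated one, and the rise was 3.77-fold (log2 1.92 ± 0.125, edgeR adjusted p = 1.88e-19). CTSL had 213, 200.0 and 194 CPM in IFNγ-treated libraries and 135, 145 and 135 CPM in untreated libraries, a log2 rise of 0.55 ± 0.0455 (edgeR adjusted p = 4.97e-13). TPP1 rose by log2 0.24 ± 0.0479, with 100.4, 102 and 95.6 CPM in IFNγ-treated libraries and 82.1, 85.5 and 84.8 CPM in untreated libraries.

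CTSH, CTSF and CTSD fell. CTSH had 4.15, 4.11 and 4.41 CPM in IFNγ-treated libraries and 6.66, 6.96 and 5.68 CPM in untreated libraries, the lowest log2 value of the group at -0.61 ± 0.155 (edgeR adjusted p = 0.00165). CTSF had 3.36, 2.52 and 2.91 CPM in IFNγ-treated libraries and 4.78, 4.05 and 3.65 CPM in untreated libraries, a log2 value of -0.51 ± 0.197 that passed narrowly (edgeR adjusted p = 0.043). The CTSF call was lost without untreated replicate 1 or 2 or IFNγ replicate 2 or 3 (edgeR adjusted p = 0.197, 0.0662, 0.173 and 0.0846). It was also lost with DESeq2 (adjusted p = 0.133). The same held without the count filter and with only the compared groups (edgeR adjusted p = 0.0607 and 0.0509). CTSD fell by 0.14 on the log2 scale, with 126, 128 and 125 CPM in IFNγ-treated libraries and 142, 138 and 138 CPM in untreated libraries.

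CTSK, with 15, 16 and 18 counts in IFNγ-treated libraries and 8, 3 and 14 in untreated ones, was called at log2 0.98 ± 0.375 (edgeR adjusted p = 0.0431). It was lost in 5 of the 6 fits that left out a library of these groups, the 6th being that without untreated replicate 3. The CTSK call was also lost with DESeq2 (adjusted p = 0.112). The same held with library totals and with only the compared groups (edgeR adjusted p = 0.0549 and 0.0534). The log2 value was 0.57 without untreated replicate 2 (edgeR adjusted p = 0.288) and 1.60 without untreated replicate 3.

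Outside the proteases the IFNγ calls were small. Of 12 glycosidases 0 rose (0 also at an unadjusted p under 0.05 in edgeR and with DESeq2), and GLB1 and NEU1 fell by 0.19 and 0.21 on the log2 scale. The GLB1 call was lost without untreated replicate 2 or IFNγ replicate 1 or 3 (edgeR adjusted p = 0.0818, 0.0659 and 0.0528), and the NEU1 call without untreated replicate 1 or 2 or IFNγ replicate 2 or 3 (edgeR adjusted p = 0.0635, 0.121, 0.0855 and 0.108). With DESeq2 neither was called (adjusted p = 0.0525 for GLB1 and 0.0776 for NEU1). FUCA1 had 3.76, 2.52 and 2.21 CPM in IFNγ-treated libraries and 4.22, 3.29 and 3.86 CPM in untreated libraries, and was not called (log2 -0.42 ± 0.199, edgeR adjusted p = 0.108). It was called lower without IFNγ replicate 1 (log2 -0.67, edgeR adjusted p = 0.0229), and so was IDUA without IFNγ replicate 2 (log2 -0.61, edgeR adjusted p = 0.0172). Among sulfatases SGSH rose by log2 0.39 ± 0.0961, with 20.9, 18.6 and 17.5 CPM in IFNγ-treated libraries and 15.5, 13.9 and 14 CPM in untreated libraries, and IDS fell by 0.23.

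The cholesterol carriers NPC2 and NPC1 rose, by log2 0.32 ± 0.0532 and 0.15 ± 0.0336. NPC2 had 67.5, 66.7 and 65.6 CPM in IFNγ-treated libraries and 53.4, 53.5 and 53.2 CPM in untreated libraries. Membrane proteins split, with SCARB2 up by log2 0.31 ± 0.0348 and LAMP2 and CLN3 down by log2 values of -0.27 ± 0.04 and -0.39 ± 0.0959. SCARB2 had 310.0, 303 and 299 CPM in IFNγ-treated libraries and 235, 252 and 247 CPM in untreated libraries. LAMP1 (log2 0.000) and CD63 (log2 -0.025) were not called.

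Most of these genes also rose in the combination. Relative to untreated cells 31 of 38 rose, 1 fell and 6 were not called, with a median log2 fold change of 0.43 against -0.001 over all genes tested. Over all genes tested, 30.9% were called higher and 31.2% lower. By role, 9 of 10 proteases, 10 of 12 glycosidases, 2 of 4 sulfatases, 6 of 7 lipid genes and 4 of 5 membrane proteins rose, and PPT1 again fell. The 39 genes held 0.467% ± 0.00933 of counts in combination libraries and 0.364% ± 0.00286 in untreated libraries (SD, n = 3 each).

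FUCA1 had 22.6, 21.9 and 23.7 CPM in combination libraries, a 5.98-fold rise over untreated cells (log2 2.58 ± 0.123, edgeR adjusted p = 5.61e-26) and the largest of the group. CTSO came next, with 22, 26.3 and 25.5 CPM in combination libraries, 5.28-fold over untreated cells (log2 2.40 ± 0.116, edgeR adjusted p = 1.28e-25). All 3 combination libraries lay above the highest library of either single treatment, which had 18.3 CPM. ARSA had 12.6, 12.8 and 13.1 CPM in combination libraries (log2 1.13 ± 0.122 over untreated cells), IDUA 10.8, 10.4 and 11.2 CPM (log2 1.10 ± 0.138) and NEU1 56, 55.7 and 53.3 CPM (log2 0.93 ± 0.0627).

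SGSH had 25.4, 27.1 and 26.9 CPM in combination libraries, above every library of the other groups, and rose by log2 0.87 ± 0.0892 over untreated cells. NPC2 did likewise with 83, 90.4 and 92.8 CPM (log2 0.73 ± 0.0507), and SCARB2 with 338, 360.5 and 369.7 CPM (log2 0.54 ± 0.0344). These 3 genes had also been called higher with each treatment alone. GAA had 33.7, 37.8 and 38 CPM in combination libraries, SMPD1 59.6, 67.5 and 62.4 CPM, and TPP1 129.9, 144 and 144 CPM. Their log2 rises over untreated cells were 0.89 ± 0.0801, 0.80 ± 0.0676 and 0.73 ± 0.0456.

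MANBA had 40.4, 39.2 and 41.1 CPM in combination libraries, MAN2B1 48.4, 51.3 and 50.1 CPM, and ASAH1 52.6, 49.9 and 50.4 CPM. They rose over untreated cells by log2 0.64 ± 0.0678, 0.62 ± 0.0624 and 0.50 ± 0.0611. CTSD had 198, 201 and 206 CPM in combination libraries (log2 0.53 ± 0.0366 over untreated cells), CTSF 5.59, 6.8 and 6.52 CPM (0.60 ± 0.164) and CTSK 2.16, 1.7 and 1.93 CPM (1.25 ± 0.357). CTSK reached 1.87 without untreated replicate 3. CTSL had 173, 169.6 and 186 CPM in combination libraries and rose by log2 0.35 ± 0.046.

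CTSH, raised by radiation and lowered by IFNγ, had 7.65, 6.23 and 7.35 CPM in combination libraries, which overlapped the untreated ones (log2 0.13 ± 0.137, edgeR adjusted p = 0.42). IDS, moved in the same opposed way, had a log2 value of -0.001 ± 0.0385 (edgeR adjusted p = 0.977). PPT1 had 117, 123 and 115 CPM in combination libraries and was the lowest of the group at log2 -0.23 ± 0.042 (edgeR adjusted p = 5.14e-06). CLN3, GUSB, FUCA2 and ARSB were the other genes not called.

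The radiation effect was next compared across 2 IFNγ backgrounds that share no library: irradiated against untreated cells, and combination against IFNγ-treated cells. Of the lysosomal genes 33 rose in the first and 32 in the second, with 31 in both, which is 93.9% of the first and 96.9% of the second. Over all genes tested, 2810 were called higher in both, 82.9% of the first and 76.3% of the second. In the second background 30.3% of all genes tested were called higher and 30.4% lower, and the lysosomal median was 0.42. PPT1 fell in both, and none of the 38 was called in opposite directions, as was also so without irradiated replicate 2, where 31 were again higher in both. FUCA1 rose by log2 2.87 ± 0.119 without IFNγ and 3.0 ± 0.132 with it, NEU1 by 1.11 ± 0.0619 and 1.14 ± 0.0647, and LAMP1 by 0.39 ± 0.0342 and 0.39 ± 0.0341. CTSL, not called in irradiated cells, fell by 0.20 on the log2 scale in combination relative to IFNγ-treated cells.

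The IFNγ effect, compared as IFNγ-treated against untreated cells and as combination against irradiated cells, recurred in part. With radiation 9 genes rose and 6 fell, against 14.5% and 12.4% of all genes tested. Of these, 7 of the higher and 4 of the lower were also called without radiation. The 7 are 87.5% of those higher without radiation and 77.8% of those higher with it, where over all genes tested 1192 were higher in both, 65.2% and 67.7%. For lower calls, over all genes tested 863 were lower in both, of 1715 lower without radiation and 1509 with it. Without irradiated replicate 2, 9 rose and 5 fell with radiation, and 7 and 3 of these were also called without it. CTSO rose by log2 1.92 ± 0.125 without radiation and 1.77 ± 0.106 with it, CTSL by 0.55 ± 0.0455 and 0.41 ± 0.0464, and SCARB2 by 0.31 ± 0.0348 and 0.29 ± 0.034. CTSH fell on both backgrounds, with log2 values of -0.61 ± 0.155 and -0.53 ± 0.125. FUCA1 and NEU1 fell in combination relative to irradiated cells, at log2 values of -0.29 ± 0.0804 and -0.18 ± 0.0548. The NEU1 call was lost without irradiated replicate 2 or combination replicate 3 (edgeR adjusted p = 0.0587 and 0.069). With DESeq2 neither was called (adjusted p = 0.0521 for FUCA1 and 0.0672 for NEU1). CTSD was called in opposite directions: it fell by 0.14 without radiation and rose by log2 0.12 ± 0.0355 with it, a rise that was not called without combination replicate 3 (edgeR adjusted p = 0.0509) or with library totals (edgeR adjusted p = 0.0997).

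**Figure D3:**
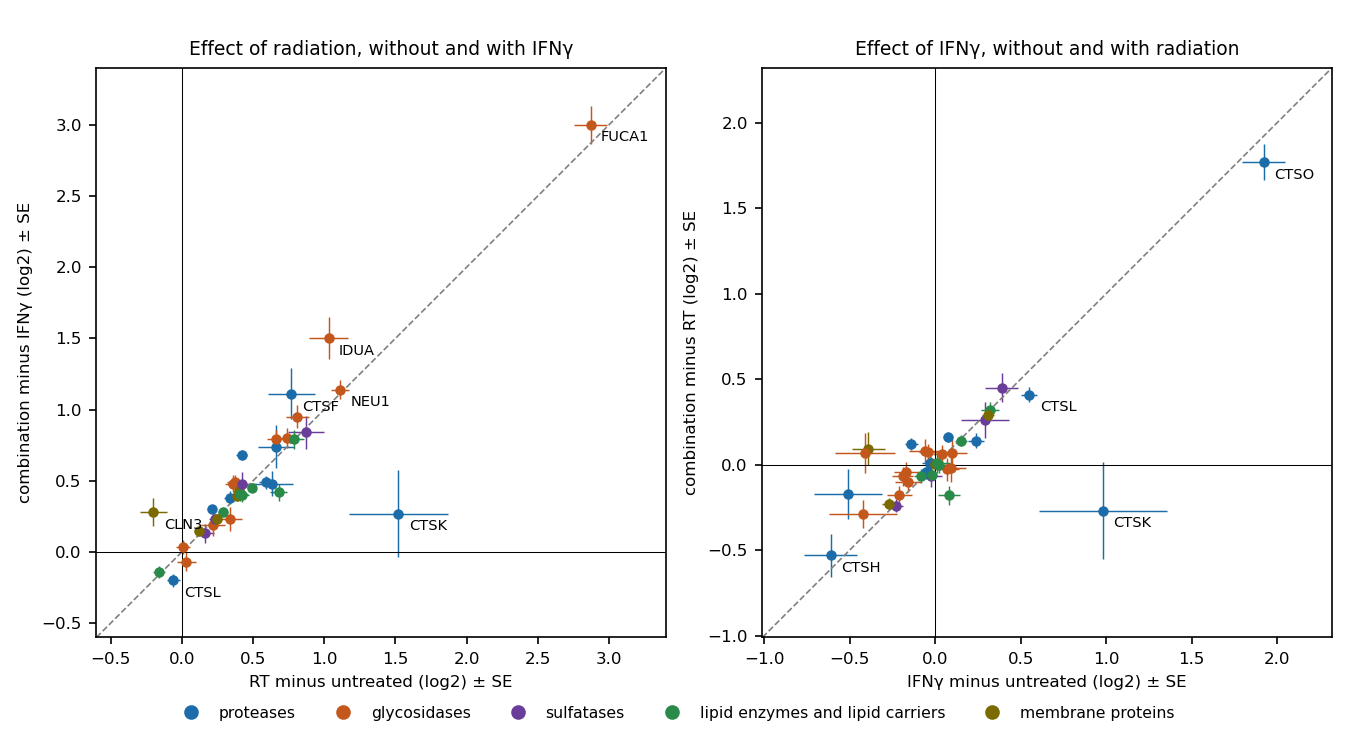
Left, the radiation effect (log2 ± SE) of the 38 tested lysosomal genes with IFNγ (combination minus IFNγ) against that without it (irradiated minus untreated); right, the IFNγ effect with radiation (combination minus irradiated) against that without it. Points are genes coloured by role and the dashed line marks equal effects. FUCA1 lies at 2.87 and 3.0 on the left, CTSO at 1.92 and 1.77 on the right, and CTSK, with few counts, lies farthest from the line.

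The interaction, which is the radiation effect with IFNγ minus that without it on the log2 scale, tests the difference between those backgrounds. It was called for 2 of 38 genes, both higher, where 2.38% of all genes tested were called, 1.38% higher and 0.995% lower. CTSD had an interaction of 0.26 ± 0.0526 (edgeR adjusted p = 0.00166), and its radiation effect was log2 0.68 ± 0.0371 with IFNγ and 0.42 ± 0.0371 without it. Of the CTSD exon bases, 41.7% are shared with an overlapping gene model on the same strand (AC068580.4) that is not a row of the count table. CLN3 had 17.8, 20.6 and 18.9 CPM in combination libraries and 18, 15.3 and 13.7 CPM in IFNγ-treated libraries, and an interaction of 0.48 ± 0.135 (edgeR adjusted p = 0.0391). CLN3 shares 25.2% of its exon bases with AC138894.1 on the same strand, also not a row of the table. The CLN3 call was lost without irradiated replicate 2 (edgeR adjusted p = 0.0895) and without 7 of the other libraries in turn, with log2 values of 0.40 to 0.48. CTSK, at -1.24 ± 0.471, was not called (edgeR adjusted p = 0.173) except without untreated replicate 3 (log2 -1.87, edgeR adjusted p = 0.0453). No gene of the 38 was called lower (3 at an unadjusted p under 0.05 in edgeR, 0 with DESeq2). For FUCA1 the interaction was 0.13 ± 0.214 and for CTSO -0.14 ± 0.177, and neither was called.

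Between genes, levels can be set side by side per kb of transcript, taken as the longest principal transcript in GENCODE release 29. In untreated cells CD63 (166 CPM per kb), CTSB (139.8), PSAP (116) and LAMP1 (96.8) led the group. The lowest tested genes were CTSK (0.483), CTSO (1.57), FUCA1 (1.85), CTSF (2.05) and IDUA (2.33). FUCA1 had 11.1 CPM per kb in combination cells and 13.6 CPM per kb in irradiated cells. CTSO had 8.32 CPM per kb in combination cells and 2.43 CPM per kb in irradiated cells.

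Other genes of the lysosome, outside the 39, were counted in lists by function. Over all genes tested, the shares called higher and lower were 27.9% and 28.2% in irradiated cells. They were 15.0% and 14.1% with IFNγ, and 30.9% and 31.2% in the combination. Of 23 tested hydrolases and activators, 19 rose and 0 fell in irradiated cells (median 0.46; 0 lower also at an unadjusted p under 0.05 in edgeR and with DESeq2). ACP5, an acid phosphatase, had 37, 30 and 26 counts in irradiated libraries and 8, 7 and 11 in untreated libraries (log2 1.87 ± 0.295). DNASE2, the acid DNase, rose by log2 1.54 ± 0.41 at 14 or 15 counts in irradiated libraries and 4 to 6 in untreated libraries. Without irradiated replicate 2 the counts were 18 and 0. With IFNγ alone 2 of the 23 rose and 3 fell, with 1 lower without IFNγ replicate 3. CTSS, the cathepsin that trims the class II invariant chain, rose by log2 6.04 ± 0.279, with 270, 209 and 196 counts in IFNγ-treated libraries and 5, 3 and 2 in untreated libraries. LGMN, the asparagine-specific protease, rose by log2 0.57 ± 0.0968, and PLA2G15, a lysosomal phospholipase, had a log2 value of -0.27 ± 0.0872 whose call was lost without untreated replicate 2 or IFNγ replicate 3 (edgeR adjusted p = 0.051 and 0.113). The PLA2G15 call was also lost with DESeq2 (adjusted p = 0.0647). CTSS was also called in irradiated cells, with 10, 15 and 8 counts (log2 1.73 ± 0.606), and that call was lost without irradiated replicate 2 (edgeR adjusted p = 0.0822) and without untreated replicate 2 or 3 (edgeR adjusted p = 0.0717 and 0.0693). In the combination 21 of the 23 rose and 0 fell, with CTSS at log2 6.70 ± 0.247, ACP5 at 2.04 ± 0.285 and DNASE2 at 1.54 ± 0.406.

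Of the 17 V-ATPase subunits and accessory proteins, 13 rose (76.5%) and 1 fell (5.88%) in irradiated cells (median 0.29). Over all genes tested, 27.9% were called higher and 28.2% lower. Without untreated replicate 3, 0 of the 17 were called lower. ATP6AP2, an accessory subunit, had the largest rise at log2 0.73 ± 0.0435. With IFNγ 2 rose (11.8%) and 4 fell (23.5%), against 15.0% and 14.1% of all genes tested. The number lower was 2 without untreated replicate 1 or 3 or IFNγ replicate 1 or 2, and the number higher was 1 without untreated replicate 1 or IFNγ replicate 1. ATP6V1B2, a subunit of the cytosolic sector, had 2219, 2119 and 1930 counts in IFNγ-treated libraries and 1084, 1101 and 1038 in untreated libraries (log2 0.98 ± 0.0427, edgeR adjusted p = 4.63e-27), while the membrane subunit ATP6V0A1 had a log2 value of -0.58 ± 0.0964. In the combination 11 rose (64.7%) and 2 fell (11.8%), against 30.9% and 31.2% of all genes tested, with ATP6V1B2 at log2 0.97 ± 0.0426. Its interaction of -0.28 ± 0.06 was called (edgeR adjusted p = 0.00343).

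For the mannose 6-phosphate tagging and sorting genes, 9 of 14 rose (64.3%) and 1 fell (7.14%) in irradiated cells (median 0.19). Over all genes tested, 27.9% were called higher and 28.2% lower. GNPTAB and GNPTG, subunits of the enzyme that adds the tag, rose by log2 0.56 ± 0.0411 and 0.47 ± 0.0835. SUMF1, which activates sulfatases, rose by 0.46 ± 0.0667. With IFNγ 0 rose (1 at an unadjusted p under 0.05 in edgeR, 0 with DESeq2) and 3 fell (21.4%), led by the sorting receptor SORT1 at log2 -0.52 ± 0.0807. Over all genes tested, 15.0% were called higher and 14.1% lower with IFNγ. In the combination 6 rose (42.9%) and 1 fell (7.14%), with 0 lower without combination replicate 2. Without IFNγ replicate 1, 1 of the 14 rose with IFNγ. Transporters and other lysosomal membrane proteins rose in 13 of 22 (59.1%) and fell in 0 with radiation (median 0.32). Of them 3 rose (13.6%) and 4 fell (18.2%) with IFNγ, near the shares over all genes tested. In the combination 14 rose (63.6%) and 2 fell (9.09%), against 30.9% and 31.2% of all genes tested. The number lower was 1 with radiation without untreated replicate 1, 1 with IFNγ without IFNγ replicate 1, and 4 in the combination without untreated replicate 2. ABCB9, a peptide transporter, led in irradiated cells at log2 1.40 ± 0.0966. Of 10 cathepsin inhibitors listed, 4 had enough counts for testing. All 4 rose in irradiated and in combination cells, against 27.9% and 30.9% of all genes tested. The serpin SERPINB1 rose by log2 0.76 ± 0.144 and 0.94 ± 0.139, and cystatin C (CST3) by 0.40 ± 0.0516 and 0.56 ± 0.0505. With IFNγ 2 of the 4 rose, against 15.0% of all genes tested. Which cathepsins these 4 inhibit was not examined.

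Of the MiT factors and nutrient sensors, 8 of 20 (40%) were higher and 1 lower in irradiated cells (median 0.11), against 27.9% and 28.2% of all genes tested, and 7 and 1 without irradiated replicate 2. TFEB, a master regulator of lysosomal genes, had 92, 69 and 102 counts in irradiated libraries and 41, 58 and 53 in untreated libraries (log2 0.83 ± 0.156, edgeR adjusted p = 7.58e-06). MITF had 162, 156 and 188 counts in irradiated libraries and 114, 126 and 103 in untreated libraries (log2 0.61 ± 0.104), and TFEC, with 18, 12 and 14 counts in irradiated libraries and 5, 3 and 2 in untreated libraries, rose by 2.14 ± 0.442. TFE3, the MiT factor with the most counts, was the gene that fell, with 605, 568 and 624 counts in irradiated libraries and 789, 780 and 711 in untreated libraries (log2 -0.30 ± 0.0521, edgeR adjusted p = 2.2e-06). It also fell in IFNγ-treated cells (log2 -0.25 ± 0.0516) and in combination cells (log2 -0.42 ± 0.0524). IFNγ raised 2 of the 20 and lowered 2, including MITF at log2 -0.51 ± 0.123. Both shares were under the 15.0% called higher and 14.1% called lower with IFNγ over all genes tested. In the combination 8 of the 20 rose and 1 fell, against 30.9% and 31.2% of all genes tested. The number higher with IFNγ was 1 without untreated replicate 2 or IFNγ replicate 3, and the number lower in the combination was 2 without combination replicate 1 or 2. Transcript levels do not show where these factors lie in the cell, which is how they are mainly controlled.

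Of 29 autophagy genes, whose products deliver cargo to lysosomes, 14 (48.3%) rose and 6 (20.7%) fell in irradiated cells (median 0.11), against 27.9% and 28.2% of all genes tested. With IFNγ 4 rose (13.8%) and 4 fell (13.8%), against 15.0% and 14.1% of all genes tested. Without IFNγ replicate 2 the numbers were 2 and 2. In the combination 16 (55.2%) rose and 9 (31.0%) fell, against 30.9% and 31.2% of all genes tested, and 5 fell without combination replicate 2. DRAM1, a lysosomal membrane protein, rose by log2 1.24 ± 0.0547 in irradiated cells, 0.67 ± 0.0581 with IFNγ and 1.71 ± 0.0519 in combination cells. OPTN, a cargo receptor, rose by log2 0.79 ± 0.0581 in irradiated cells, 1.23 ± 0.0551 with IFNγ and 1.84 ± 0.0518 in the combination. SQSTM1, a cargo receptor too, rose by 0.60 ± 0.0358 in irradiated cells, and ULK1, the initiating kinase, had a log2 value of -0.54 ± 0.0879 with IFNγ.

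**Figure D4:**
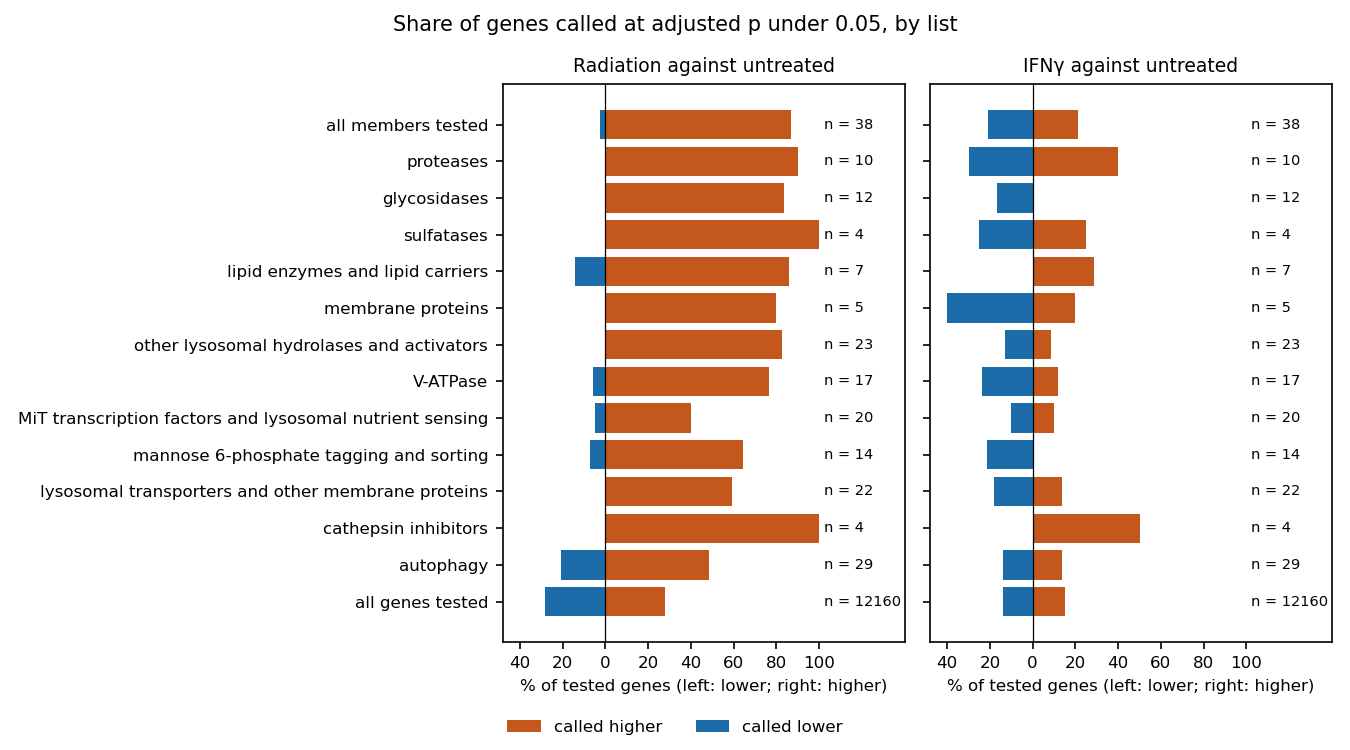
Share of tested genes called higher (right of 0) and lower (left of 0) in irradiated and in IFNγ-treated cells, each against untreated cells, for the lysosomal genes as a whole, by role, for 7 further lists and for all 12160 genes tested; n is the number tested. In irradiated cells 86.8% of the 38 lysosomal genes were called higher and 2.63% lower, against 27.9% and 28.2% of all genes tested.

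Markers of other cell types moved with the treatments at low levels. The summed level of 8 macrophage and immune markers was 7.12 to 7.85 CPM in combination, 6.15 to 10.2 in irradiated, 3.54 to 4.02 in IFNγ-treated and 3.89 to 4.56 in untreated libraries, and AIF1 and MRC1 had 0 counts in most libraries. CSF1R gave most of these counts in every library but irradiated replicate 2, where it gave 42 of 99 and the sum was highest; the other irradiated libraries had 7.1 and 6.15 CPM. The 4 endothelial markers summed to 1.64 to 1.88 CPM in combination, 1.13 to 2.08 in irradiated, 1.54 to 2.1 in IFNγ-treated and 0.95 to 1.33 in untreated libraries. The 4 osteoclast markers, nearly all ACP5, summed to 3.22 to 3.74 CPM in combination, 2.68 to 3.91 in irradiated, 0.478 to 0.974 in IFNγ-treated and 0.665 to 1.13 in untreated libraries. These sums were therefore small throughout, and those of immune and osteoclast markers were higher with radiation. The 8 mesenchymal markers summed to 7749 to 7763 CPM in combination, 8153 to 8417 in irradiated, 7518 to 7576 in IFNγ-treated and 8199.7 to 8491 in untreated libraries. The 6 epithelial markers, nearly all KRT8 and KRT18, summed to 569 to 584 CPM in combination, 406 to 426 in irradiated, 504 to 513 in IFNγ-treated and 388 to 414 in untreated libraries. Their part in the lysosomal differences was not tested.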

How the data were processed

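RNA sequencing was analysed in 12 libraries of HT1080 cells, in 4 groups of 3. The authors deposited raw, unnormalized counts per gene as whole numbers. The submitters' processing notes name hg19 (GRCh37) as the build and list Cuffdiff 2.2.1, Cufflinks, TopHat2 2.0.13 and FastQC 0.11.3. How reads were counted, with which annotation and whether by strand, is not given in the sources used here, so genes that overlap others carry counts of uncertain assignment. Per the labels' protocols, ribosomal RNA was removed before stranded library construction with paired-end sequencing of 50 cycles, although the series' design text names an mRNA protocol. The header of the first 4 columns is offset by 1, so they were identified by content.

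Counts were tested in edgeR 4.0.16 (R 4.3.3): filterByExpr, TMM scaling, 1 quasi-likelihood fit over all 12 libraries with robust dispersions, and Benjamini-Hochberg adjustment over 12160 genes. SE was taken as the size of the log2 fold change over the square root of F. The script was tested on simulated data. Over 18 same-numbered pairs of libraries, deviations from group means correlated at -0.0963 to 0.108. Over 36 differently numbered pairs they correlated at -0.204 to 0.123. Same-numbered libraries thus showed no sign of pairing, although a weak shared effect would not be seen this way. Chi-square per degree of freedom of replicate pairs was 1.13 to 2.67, so no pair had identical counts. For 1 library sequenced again a value near 1 would be found. Pairs at the low end, such as irradiated replicates 1 and 3 (1.13), cannot be told from that. The highest value, 2.67, was between untreated replicates 1 and 2, and its source was not tested. Alternatives were other scalings, filters, a replicate block, fits on the compared groups alone, DESeq2 1.42.0 and leaving out each library.

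The members and gene lists were chosen with earlier results of these data known. Values in every library are given for members called with an absolute log2 fold change of at least 0.5 against untreated cells, members called in the interaction, and the highest and lowest member of each contrast. Of the other lists, at most the 3 called genes with the largest change in each of those contrasts are named. Per-library values of further members, such as CTSL in irradiated cells, and the ATP6V1B2 interaction were chosen after their values were seen. Of the 19293 gene identifiers, 19247 matched GENCODE release 29, which served for lengths and overlaps and gave no coordinates. Exon overlaps there are on GRCh38, not the authors' build.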

Additional observations from a re-analysis of the deposited data

Results flagged for a closer look

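The effect of radiation differed with and without IFNγ for 2 of the 38 tested lysosomal genes by the interaction term itself. For CTSD the difference was 0.26 on the log2 scale (SE 0.0526, edgeR adjusted p = 0.00166): levels were 201 ± 4 CPM in combination and 126 ± 1.37 CPM in IFNγ-treated cells, and 186 ± 1.24 CPM in irradiated and 139 ± 2.24 CPM in untreated cells (SD, n = 3 each). The CTSD call held in each alternative run. For CLN3 the difference was 0.48 (SE 0.135, edgeR adjusted p = 0.0391): levels were 19.1 ± 1.43 CPM in combination and 15.7 ± 2.15 CPM in IFNγ-treated cells, and 17.9 ± 1.46 CPM in irradiated and 20.5 ± 1.8 CPM in untreated cells. The CLN3 call was lost with DESeq2 (adjusted p = 0.142) and without 8 of the 12 libraries in turn. Apart from the description of irradiated replicate 2 and the fits without each library, groups were not searched for single libraries far from the others.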

How the results depend on the processing

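Of 4281 alternative values for single lysosomal genes, 4193 kept their call or lack of one, 67 lost the call and 21 gained it. Of called values 0 changed sign, and the sign of values that stayed uncalled was not compared. Members called lower with IFNγ numbered 8, against 13 with library totals and 5 with DESeq2, and 5 to 9 when libraries were left out in turn (5 without untreated replicate 2 or IFNγ replicate 3). In the combination against irradiated cells, 6 members were lower, against 3 with DESeq2. In the interaction, 2 members were higher, against 1 with DESeq2, and 289 genes were called in all, against 159 with DESeq2. Leaving out libraries gave 1 to 2 members higher and 0 to 1 lower in the interaction, 161 to 330 genes called in all (161 without irradiated replicate 2), and 1 to 2 members lower in irradiated cells (2 without untreated replicate 2 or irradiated replicate 3). The causes were not tested. Leaving out libraries gave 31 to 33 members higher in irradiated cells, 31 in the combination, 29 to 32 in the combination against IFNγ-treated cells, 7 to 9 with IFNγ and 7 to 9 in the combination against irradiated cells.

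With library totals, 38% of all calls were on the higher side in the combination against irradiated cells (53.9% with TMM) and 69.4% in the interaction (58.1%). The replicate block changed no count of members: 8 higher and 8 lower with IFNγ, 33 and 1 with radiation, 31 and 1 with both. For the other lists, runs added after seeing the data kept 1908 of the single-gene values, and 53 lost the call. With IFNγ, library totals gave 7 other hydrolases lower (3), 8 transporters lower (4) and 8 autophagy genes lower (4). It also gave 1 V-ATPase and 1 MiT list gene higher (2 each), and the filter of 10 counts in every library 1 other hydrolase higher (2). DESeq2 gave, with IFNγ, 1 other hydrolase lower (3), 2 V-ATPase genes lower (4) and 1 MiT list gene higher (2), and in the combination 5 autophagy genes (9) and 0 sorting genes lower (1). Low counts limit CTSK, DNASE2, TFEC and, without IFNγ, CTSS.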
